A study of Ovis aries with 10 samples.

Results

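The miRNAs described here are oar-miR-23a, oar-miR-23b and oar-miR-27a, which were taken by probe name from a custom ovine miRNA array. They are 3 of the 152 ovine miRNA probes, and the array carries no probe named for their other cluster partners, miR-24 and miR-27b. Lung tissue came from 5 female sheep of 9 months, numbered 2, 3, 6, 7 and 10 in the sample labels, at week 4. From each sheep the caudal segment labelled Fibrosis and the caudal segment labelled Normal were hybridised, which gives 10 arrays, 5 in each group. Per the methods, bleomycin was given through a bronchoscope to one caudal segment and saline to the other, so both groups come from the same animals and the normal segment is an internal control that was itself infused with saline. The animals were Merino, and the study chose these 5 for the most severe fibrosis, so they do not represent the range of the model. The methods name the left segment as the bleomycin segment. The labels give the left segment as Fibrosis in sheep 2 and 3 and the right segment in sheep 6, 7 and 10, and the labels were followed here.

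A miRNA is a short RNA that lowers the output of mRNAs matching its seed, the stretch of bases near its 5′ end. MiR-23a and miR-27a are cut from one primary transcript together with a miR-24 hairpin, while miR-23b belongs to a second copy of this cluster, with miR-27b and another miR-24 hairpin. MiR-23a and miR-23b share their seed and nearly all of their mature sequence, whereas miR-27a has another seed and another set of targets. Both clusters are known for roles in endothelial cells and vessel growth and in T cells. MiR-27 is known as a brake on fat cell formation and, in cultured lung fibroblasts, on TGF-β signalling and the myofibroblast programme, and miR-23b as a regulator of Smad genes. In the RefSeq table of the sheep assembly ARS-UI_Ramb_v3.0, MIR23A and MIR27A are direct neighbours on 1 chromosome and the next gene after MIR27A is ZSWIM4. MIR23B lies on another chromosome, inside AOPEP, with 0 other miRNA genes within 100 kb in that table. The array files name no genome build, so positions are not given. Because miR-23a and miR-23b are so alike, each probe can bind the other miRNA to an extent that was not tested.

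None of the 3 miRNAs differed between the fibrotic and the normal segments beyond the spread between sheep. MiR-27a was the most variable of them and moved in opposite directions in different sheep, with a change of 80.2% in sheep 7 and of -48.4% in sheep 6. MiR-23a and miR-23b stayed close to their normal level in most sheep. The values below are background-corrected Cy3 intensities, on a linear scale as deposited, and changes are log2 ratios of fibrotic to normal within a sheep. Tissue pieces hold many cell types, so fewer cells that carry a miRNA and less of it per cell cannot be told apart.

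MiR-27a had an intensity in the normal segment of 1818, 1242, 2401, 1178 and 1843 in sheep 2, 3, 6, 7 and 10. In the fibrotic segment it had 2520, 1088, 1239, 2123 and 2499 in sheep 2, 3, 6, 7 and 10. The groups overlapped almost fully. The fibrotic segments of sheep 2 and 10 were the brightest and that of sheep 3 the dimmest of the 10 arrays, and the normal segment of sheep 6 came next after the brightest ones. The mean was 1696 ± 502 (SD, n = 5) in the normal group and 1894 ± 687 (SD, n = 5) in the fibrotic group.

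Within sheep, miR-27a changed by 0.47, -0.19, -0.95, 0.85 and 0.44 in sheep 2, 3, 6, 7 and 10. It was thus higher in the fibrotic segment of 3 sheep and lower in 2. The mean change was 0.12 with a standard error of 0.29 and a 95% interval from -0.61 to 0.85, a fold change of 1.09 within limits of 0.657 and 1.81 (limma, sheep as a block, adjusted p = 0.840 over the 152 miRNAs). The exact sign-flip permutation test over the 5 sheep, two-sided, gave p = 0.75, where the smallest p that 5 sheep allow is 0.0625. The mean depended on which sheep were included. It was 0.39 without sheep 6 (adjusted p = 0.383), -0.059 without sheep 7, 0.036 without sheep 2, 0.20 without sheep 3 and 0.044 without sheep 10.

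**Figure D1:**
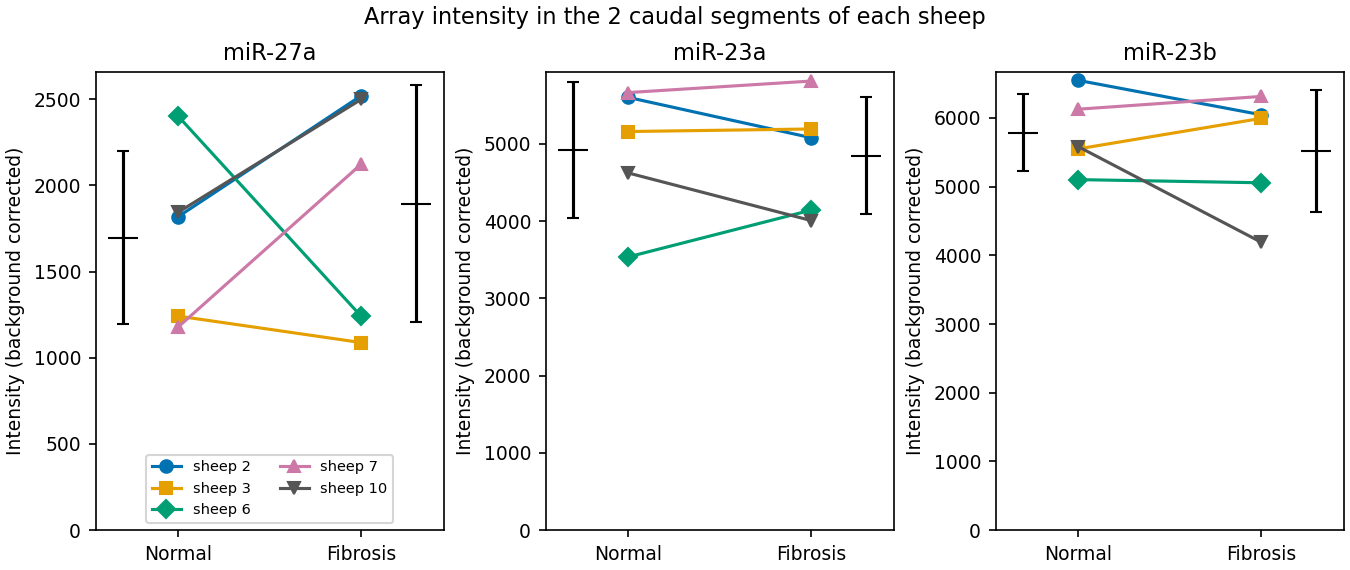
Background-corrected intensity (vertical axis, linear and starting at 0, with its own range for each miRNA) of miR-27a, miR-23a and miR-23b in the normal and the fibrotic segment; lines join the segments of 1 sheep, and black bars give the group mean and SD (n = 5). The lines of miR-27a cross, with sheep 6 going from 2401 to 1239 and sheep 7 from 1178 to 2123, while most lines of both miR-23 miRNAs run nearly level.

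MiR-23a, the cluster partner of miR-27a, had an intensity in the normal segment of 5603, 5161, 3537, 5665 and 4625 in sheep 2, 3, 6, 7 and 10. In the fibrotic segment it had 5080, 5194, 4144, 5815 and 4008 in sheep 2, 3, 6, 7 and 10. Here the sheep stood apart and not the segments. The 4 arrays of sheep 6 and 10 were the 4 dimmest in miR-23a, and both segments of sheep 7 were the brightest. The mean was 4918 ± 877 (SD, n = 5) in the normal group and 4848 ± 760 (SD, n = 5) in the fibrotic group.

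The change of miR-23a was -0.14, 0.0092, 0.23, 0.038 and -0.21 in sheep 2, 3, 6, 7 and 10. Its mean change was -0.015 with a standard error of 0.12 and a 95% interval from -0.32 to 0.29, which leaves room for fold changes between 0.801 and 1.22 (limma adjusted p = 0.953). The exact permutation test by sign flips, two-sided, gave p = 1. Among the 59 miRNAs whose log2 signal averaged 5 or more, a limit set to leave out dim probes, miR-23a had the smallest mean change in size.

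MiR-23b had an intensity in the normal segment of 6547, 5549, 5102, 6127 and 5583 in sheep 2, 3, 6, 7 and 10. In the fibrotic segment it had 6045, 5994, 5056, 6313 and 4190 in sheep 2, 3, 6, 7 and 10. The fibrotic segment of sheep 10 was the dimmest of the 10 arrays, and the other 4 fibrotic segments lay within the range of the normal segments or just below it. The mean was 5782 ± 561 (SD, n = 5) in the normal group and 5520 ± 882 (SD, n = 5) in the fibrotic group.

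The change of miR-23b was -0.11, 0.11, -0.013, 0.043 and -0.41 in sheep 2, 3, 6, 7 and 10. The mean change was -0.078 with a standard error of 0.13 and a 95% interval from -0.40 to 0.25, or fold changes between 0.756 and 1.19 (limma adjusted p = 0.794). It was lower in the fibrotic segment of 3 sheep and higher in 2 (exact sign-flip permutation test over sheep, two-sided, p = 0.5625). Sheep 10 carried the decrease, and without it the mean was 0.0066.

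Over all 152 miRNAs, limma with Benjamini-Hochberg adjustment called 0 (0%) at an adjusted p under 0.05, and 18 (11.8%) had an unadjusted p under 0.05, of which none is among the 3 miRNAs. The test that the methods name, run over sheep as pairs, also called 0 after adjustment, and 9 at an unadjusted p under 0.05. Of the 3 miRNAs, 0 changed in the same direction in all 5 sheep, against 21 of all 152 (13.8%). The 3 mean changes lay in the middle of the array, where 109 miRNAs had a larger change in size than miR-27a, 124 than miR-23b and 146 than miR-23a. Many of the 152 are dim. Among the 59 brighter miRNAs, 37 had a larger change in size than miR-27a, 46 than miR-23b and 58 than miR-23a.

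**Figure D2:**
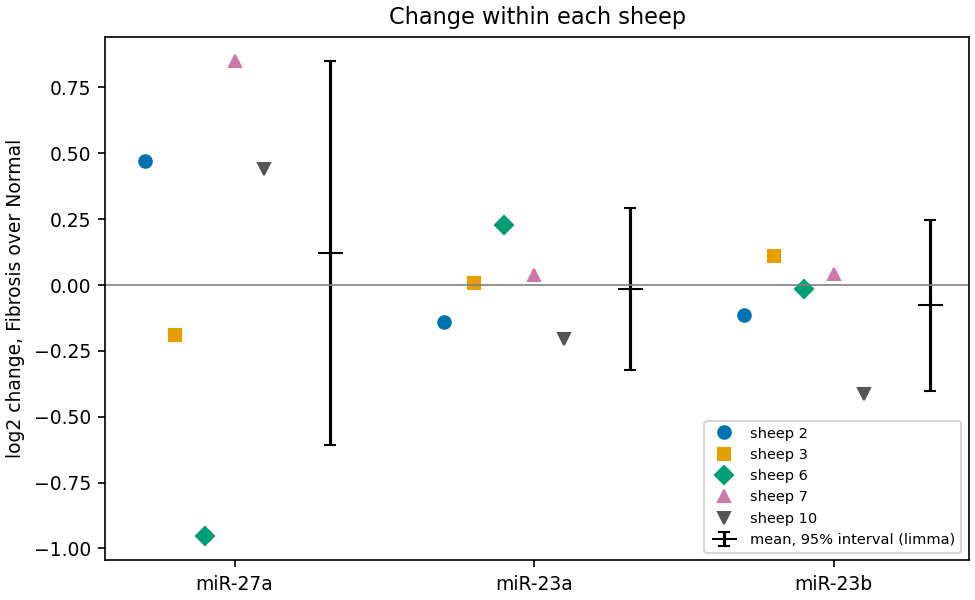
Change of the fibrotic over the normal segment (vertical axis, log2) of miR-27a, miR-23a and miR-23b in each of 5 sheep, with the mean and 95% interval of limma in black. All 3 intervals span 0, and the sheep lie between -0.95 and 0.85 for miR-27a but between -0.41 and 0.23 for both miR-23 miRNAs.

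The question of whether miR-27a moved with its cluster partner was put to the difference of their changes on the same arrays, in which any factor common to an array cancels. MiR-27a minus miR-23a was 0.61, -0.20, -1.18, 0.81 and 0.65 in sheep 2, 3, 6, 7 and 10. The changes of both had the same sign in 1 of 5 sheep, sheep 7. In sheep 6 miR-27a changed by -0.95 and miR-23a by 0.23, and in sheep 2 and 10 the signs were the other way round. The mean difference was 0.14 with a standard error of 0.47 and a 95% interval from -0.87 to 1.15 (limma on log2 ratios to miR-27a, adjusted p = 0.939 over 151 ratios). The interval is wide enough to hold differences of more than 1 log2 unit upward, so no difference between the partners was detected, and their changes are not shown to be alike.

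Against miR-23b of the other cluster, the change of miR-27a differed by 0.59, -0.30, -0.94, 0.81 and 0.85 in sheep 2, 3, 6, 7 and 10. The signs were shared in 2 of 5 sheep, sheep 6 and 7. The mean difference was 0.20 with a standard error of 0.46 and a 95% interval from -0.80 to 1.20 (limma adjusted p = 0.922). Without sheep 6 the mean difference was 0.49 against miR-23b and 0.47 against miR-23a.

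The miR-23 miRNAs of the separate clusters stayed closer together. MiR-23a minus miR-23b was -0.026, -0.10, 0.24, -0.0056 and 0.21 in sheep 2, 3, 6, 7 and 10, and their changes shared a sign in 4 of 5 sheep. The mean difference was 0.063 with a standard error of 0.17 and a 95% interval from -0.34 to 0.47 (limma on log2 ratios to miR-23b, adjusted p = 0.882 over 151 ratios). That standard error also draws on the spread of the other ratios in the fit, and with a floor of 32 it was 0.11. The SD of the difference over the 5 sheep was 0.15. Limma called 0 (0%) of the ratios to miR-27a and 0 (0%) of those to miR-23b at an adjusted p under 0.05, with 9 (5.96%) and 19 (12.6%) at an unadjusted p under 0.05. All ratios to 1 miRNA carry the spread of that miRNA, so they are not independent, and these counts are not compared. For the 3 differences the two-sided exact sign-flip permutation test gave p = 0.6875, 0.625 and 0.5 in the order given above, or 0.6875 for each after Benjamini-Hochberg adjustment over the 3.

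The spread between sheep differed among the 3 miRNAs more than their mean changes did. The SD of the within-sheep change was 0.71 for miR-27a, 0.17 for miR-23a and 0.21 for miR-23b, beside a median of 0.34 over the 59 brighter miRNAs. Among these 59, ordered from the most to the least variable change, miR-27a ranked 9, miR-23b 48 and miR-23a 51. The brightest array exceeded the dimmest by 2.32-fold for miR-27a, 1.64-fold for miR-23a and 1.56-fold for miR-23b.

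The split of the total sum of squares of the log2 signals shows where this spread lay. For miR-23a, 88.9% was between sheep, 0.101% between the conditions and 11.0% in what remained. For miR-23b the shares were 70.2%, 4.50% and 25.3%. For miR-27a, 50.7% was between sheep, 1.79% between the conditions and 47.5% in the remainder, which is the part by which segments of 1 sheep differ without a common direction. The median shares of the 59 brighter miRNAs were 72.5%, 7.75% and 14.9%, taken separately, so the share between conditions was below the median for each of the 3 miRNAs. By side of the lung, the mean log2 difference of the left minus the right segment was -0.011 for miR-27a, -0.038 for miR-23a and 0.076 for miR-23b, with the left segment brighter in 2, 2 and 3 of the 5 sheep.

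**Figure D3:**
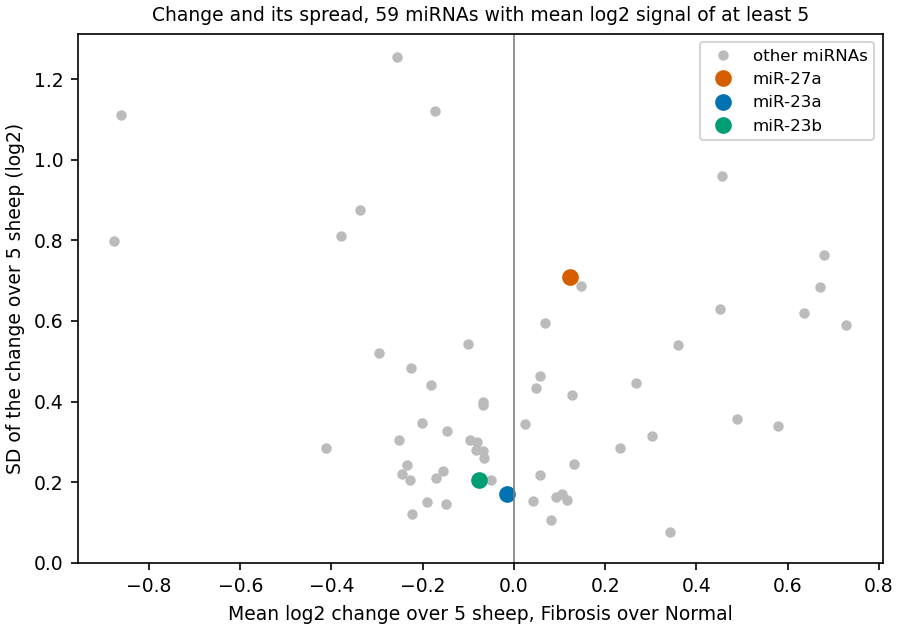
Mean change over 5 sheep (horizontal axis, log2, fibrotic over normal) against the SD of the change (vertical axis, log2) for the 59 miRNAs whose log2 signal averaged 5 or more, with the 3 miRNAs in colour. MiR-27a has a mean of 0.12 and an SD of 0.71, while miR-23a and miR-23b sit near 0 with an SD of 0.17 and 0.21.

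Across the 10 arrays the log2 signals of miR-23a and miR-23b went together, with Pearson r = 0.83 and Spearman rho = 0.87. After the mean of each sheep was taken out, r was 0.67. The pooled r, with sheep means left in, was 0.91 without the 2 arrays farthest from the median of miR-23a. MiR-27a had r = -0.35 and rho = -0.42 with miR-23a, and r = -0.26 and rho = -0.15 with miR-23b. With the mean of each sheep taken out, r between miR-27a and miR-23a was -0.70, and sheep 6 contributed most to it. Without the 2 arrays farthest from the median of miR-27a, the pooled r was -0.16. Without the 2 farthest from that of miR-23a it was 0.18, so the sign of the pooled r depended on the latter arrays. The r with sheep means taken out was not recomputed without any arrays. These values describe 10 arrays from 5 sheep, which are not independent, and probes that can bind both miR-23 sequences.

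**Figure D4:**
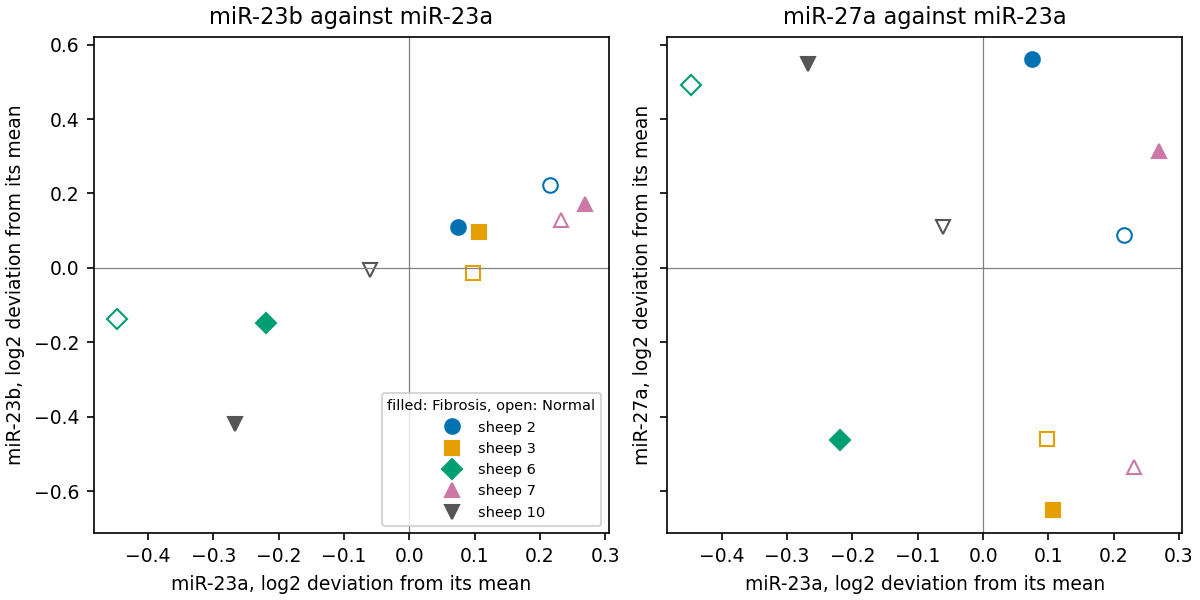
Log2 deviation of each array from the mean of the miRNA, for miR-23b (left) and miR-27a (right) on the vertical axis against miR-23a on the horizontal axis; colour and shape mark the sheep, filled symbols the fibrotic and open symbols the normal segment. The points of miR-23b rise with miR-23a (r = 0.83), and those of miR-27a do not (r = -0.35).

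Among the 58 other brighter miRNAs, the closest in pattern to miR-23b was miR-23a, followed by miR-150, a lymphocyte miRNA, with r = 0.76 (rho = 0.56). Next were miR-125b with r = 0.71 (rho = 0.59), miR-30d with r = 0.67 (rho = 0.59) and miR-376e-3p with r = 0.64 (rho = 0.68). With the mean of each sheep taken out, r with miR-23b was 0.78 for miR-150, 0.092 for miR-125b, 0.17 for miR-30d and -0.18 for miR-376e-3p. For miR-23a the closest were miR-30d with r = 0.86 (rho = 0.76) and miR-125b with r = 0.86 (rho = 0.76), ahead of miR-23b, and then miR-150 with r = 0.76 (rho = 0.64) and miR-30c with r = 0.76 (rho = 0.60). The values for miR-23a with sheep means removed were 0.39 for miR-30d, 0.68 for miR-125b, 0.66 for miR-150 and 0.11 for miR-30c. The list for miR-27a shared no name with these. It was headed by miR-29b, which represses collagen genes, with r = 0.81 (rho = 0.81), followed by miR-19b with r = 0.76 (rho = 0.71) and miR-494-3p with r = 0.75 (rho = 0.70). MiR-200a, an epithelial miRNA, had r = 0.69 (rho = 0.66) and miR-21, which many injured tissues raise, r = 0.64 (rho = 0.60). With sheep means removed these were 0.68 for miR-29b, 0.76 for miR-19b, 0.87 for miR-494-3p, 0.58 for miR-200a and 0.52 for miR-21. MiR-23a ranked 39 and miR-23b 33 of 58 in likeness to miR-27a. All of these are correlations over the same 10 arrays and share their scale and depth.

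Of 13 miRNAs linked to TGF-β signalling and extracellular matrix, all on the array, 0 passed the adjusted test, 7 had a mean change above 0 and 6 below, and the median was 0.068. Over all 152 miRNAs, 70 had a mean change above 0 and 81 below, and the median was -0.021. Over the 59 brighter miRNAs, to which all 13 belong, 27 had a mean change above 0 and 32 below. The median of these 59 was -0.066, and 6 of them had an unadjusted p under 0.05. An unadjusted p under 0.05 was found for 3 of the 13, miR-21, miR-199a-3p and miR-200b, beside 11.8% of all miRNAs. The ends of the list were miR-21 at 0.73 with a standard error of 0.25 and miR-133, a muscle miRNA, at -0.86 with a standard error of 0.44, so the change of miR-27a at 0.12 lay well inside it. Of 12 miRNAs linked to endothelium, vessel wall and angiogenesis, 0 passed, 4 had a mean change above 0 and 8 below, and the median was -0.091. Here 2 of the 12, miR-21 and miR-218a, had an unadjusted p under 0.05, again beside 11.8% of all miRNAs, with miR-218a lowest at -0.41 and a standard error of 0.15. These 12 also belong to the 59 brighter miRNAs. The lists overlap and are not separate sets, and miR-21 belongs to both.

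Measures of the arrays moved with miR-23a. The summed intensity of the 152 miRNA probes was nearly level, between 138979 and 146225, whereas that of the 55 control probes ran from 78151 to 936426 and was highest on the 4 arrays of sheep 6 and 10, the ones dimmest in miR-23a. Over the 10 arrays the log2 signal of miR-23a had r = -0.81 and rho = -0.73 with the log2 summed control signal, against r = -0.52 and rho = -0.49 for miR-23b and r = 0.45 and rho = 0.52 for miR-27a. In sheep 6 the segment with the higher control signal, the normal one, had less miR-23a, and in sheep 10 it had more. The part of this in the differences between sheep was not tested.

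Of the 7 markers of cell types, 0 had an adjusted p under 0.05. All but miR-143 and miR-150 also belong to the list linked to TGF-β signalling and extracellular matrix. The summed intensity of miR-200a, miR-200b and miR-200c, which mark epithelium, ranged from 2400 to 4319 in normal and from 3496 to 6713 in fibrotic segments and was higher in the fibrotic segment of 5 of 5 sheep, with log2 changes of 1.25, 0.42, 0.12, 0.86 and 0.13 in sheep 2, 3, 6, 7 and 10, beside 0.47, -0.19, -0.95, 0.85 and 0.44 for miR-27a. MiR-150 ranged from 445 to 2107 in normal and from 309 to 1985 in fibrotic segments and was lower in 4 of 5 sheep. Its log2 changes were -0.068, -0.086, 0.25, -0.48 and -1.10 in sheep 2, 3, 6, 7 and 10, beside -0.11, 0.11, -0.013, 0.043 and -0.41 for miR-23b. The sum of miR-143 and miR-199a-3p, which smooth muscle and mesenchymal cells carry, was higher in 3 of 5 sheep, within 5564 to 20054 in normal and 8484 to 16264 in fibrotic segments. Taken singly, miR-199a-3p had a mean log2 change of 0.49 with a standard error of 0.17, and miR-143 one of 0.056 with a standard error of 0.21. MiR-133 of striated muscle lay between 35.2 and 162 in normal and between 23.5 and 49.3 in fibrotic segments. Of these 7 markers 0 were below an intensity of 1 on any array. Their part in the changes of miR-27a, miR-23a and miR-23b was not tested.

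The sign of the mean change depended on how the arrays were scaled. MiR-27a, at 0.12 on the deposited values, was at -0.094 after quantile normalization and at -0.032 with arrays centred on the miRNA median, a step that lowers every mean change by 0.16. Set against miR-103, which served as reference in the PCR assays, miR-27a was at 0.032, miR-23a at -0.11 and miR-23b at -0.17. MiR-103 itself had a mean change of 0.091, so this step lowers every mean change by that amount. With the left segment taken as fibrotic in every sheep, as the methods have it, the changes were -0.011 for miR-27a, -0.038 for miR-23a and 0.076 for miR-23b. These are the left minus right differences given above, because the contrast is the same. In sheep 2 and 3 alone, where labels and methods name the same segment, they were 0.14, -0.066 and -0.0018.

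**Figure D5:**
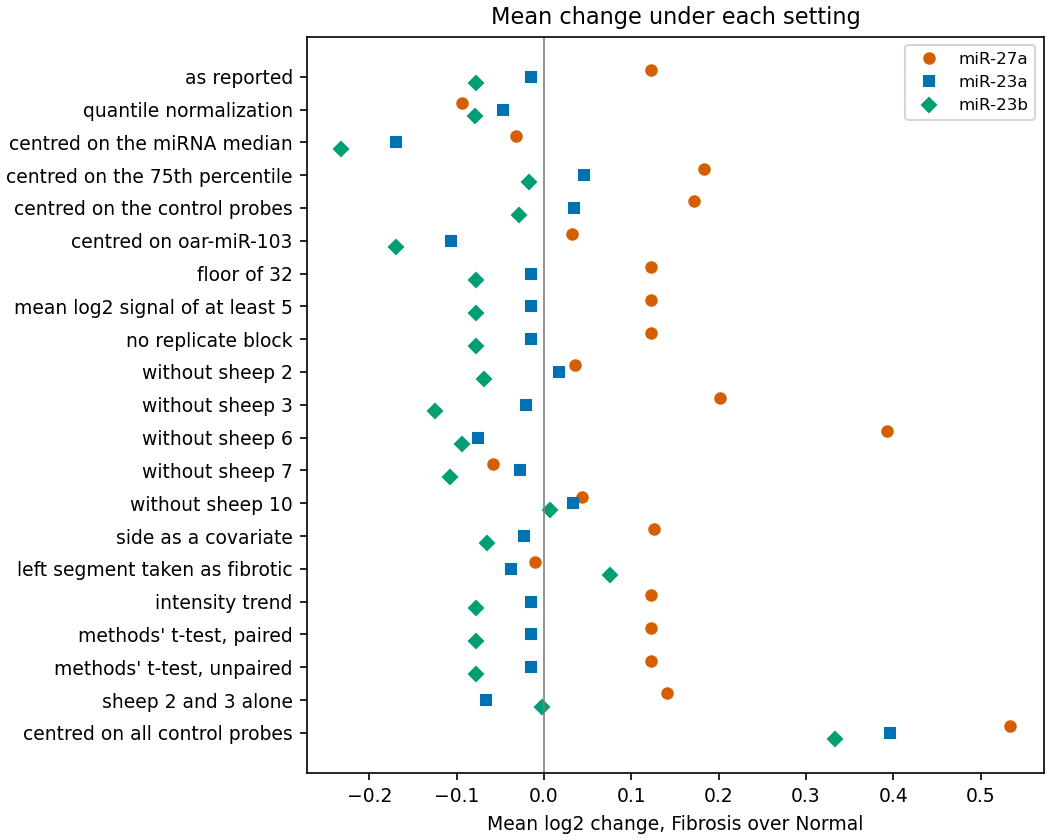
Mean change of miR-27a, miR-23a and miR-23b (horizontal axis, log2, fibrotic over normal) as reported and under 20 other settings (vertical axis). MiR-27a ranges from -0.094 to 0.53, and the 3 miRNAs cross 0 under at least 3 of the settings each.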

How the data were processed

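Small RNA was labelled with Cy3 and hybridised to a custom ovine array of LC Sciences that holds 152 miRNA probes besides 55 control probes. What the authors deposited is an intensity for each probe, background corrected and averaged over replicate spots, which were not analysed here. The methods describe log2 transformed data, but the deposited intensity values are linear, and the nearly equal sums make a step between arrays likely, although none is stated. The number of arrays limits the precision.

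Intensities under 1 were raised to 1 before log2 was taken. Each miRNA was fitted in R 4.3.3 with limma 3.58.1 (lmFit, eBayes), with condition and a sheep block as terms, because both segments come from 1 animal, and p was adjusted by Benjamini-Hochberg. Same-sheep segments deviated from the group means with a correlation over the miRNAs of -0.67 in sheep 7 and between 0.34 and 0.90 in the other sheep. Differences of changes were fitted on log2 ratios, and values were also tested by exact sign flips over sheep. Correlations were computed with scipy 1.17.1. The fit was tested on simulated arrays. The members and lists were chosen with earlier results of these data known. Other miRNAs were named by a rule, namely the 5 closest in Pearson r to each member among those averaging 5 or more in log2 signal, miR-103, and the ends of the lists, while miR-199a-3p, miR-200b and miR-539-3p were named after their values were seen. Centring on all control probes and the use of sheep 2 and 3 alone were added to the alternatives after seeing the data.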

Additional observations from a re-analysis of the deposited data

How the results depend on the processing

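No change of miR-27a, miR-23a or miR-23b and no difference between them had an adjusted p under 0.05 under any alternative, and the smallest adjusted p was 0.383, for miR-27a without sheep 6. Their direction was not stable. With 1 sheep left out in turn, the mean log2 change ran from -0.059 to 0.39 for miR-27a, from -0.075 to 0.033 for miR-23a and from -0.12 to 0.0066 for miR-23b, and the count of miRNAs called stayed at 0. The difference of miR-27a ran from -0.031 to 0.47 against miR-23a and from 0.038 to 0.49 against miR-23b, and that of miR-23a against miR-23b from 0.018 to 0.10. Quantile normalization put miR-27a at -0.094, its difference to miR-23a at -0.047 and that to miR-23b at -0.015. Centring on the miRNA median put miR-27a at -0.032, centring on the 75th percentile put miR-23a at 0.046, and centring on the 49 control probes above the floor on all arrays put miR-23a at 0.034. Centring on all 55 control probes, which raises every mean change by 0.41, gave 0.53 for miR-27a, 0.40 for miR-23a and 0.33 for miR-23b and called 1 miRNA, miR-539-3p. That miRNA is not among the 59 brighter ones. Its standard error there, 0.62, equalled that of miR-27a, miR-23a and miR-23b, so it does not reflect the spread of miR-539-3p itself. Taking the left segment as fibrotic gave -0.011 for miR-27a, 0.076 for miR-23b, -0.087 for miR-27a minus miR-23b and -0.11 for miR-23a minus miR-23b, and with sheep 2 and 3 alone the last was -0.064. Without the block the mean changes were the same 0.12, -0.015 and -0.078 with limma adjusted p of 0.926, 0.983 and 0.905, and the count of miRNAs at an unadjusted p under 0.05 was 8 in place of 18. It lay between 3, when the left side counted as fibrotic, and 26 without sheep 6. A floor of 32, the filter on dim miRNAs, an intensity trend and t-tests over sheep leave these bright miRNAs' mean changes as they are by construction. They bear on the standard error, the interval and p. For miR-23a the standard error was 0.12 as reported, 0.075 with a floor of 32 and 0.088 with an intensity trend. For miR-27a it was 0.29, 0.31 and 0.26 in the same order. With side as a covariate the changes were 0.13, -0.023 and -0.065 for miR-27a, miR-23a and miR-23b. The cause of the other shifts was not tested.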
